A study of Mus musculus with 2 samples.

Results

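Fibroblasts of mouse epididymal fat were compared between 2 sets of hashtag populations of 1 pooled single-cell experiment: tags A0301, A0302 and A0303 (the first set) and tags A0304, A0305 and A0307 (the second set). A cell counted as a fibroblast when at most 25% of its reads were mitochondrial, at least 3 of Pdgfra, Lum, Dpt, Clec3b and Mfap5 reached 100 CPM (counts per 1000000 reads of that cell), and C1qa, C1qb, Cdh5 and Upk3b together stayed under 500 CPM. This gave 2226 fibroblasts, 1334 in the first set (404, 488 and 442) and 892 in the second (278, 315 and 299), out of 6910 cells of the 6 tags and 11750 cells with 1 tag call in the whole series. All cells came from the stromal vascular fraction, the cells left after fat is digested and adipocytes float off, of male wild-type C57BL/6J mice. Some mice had eaten standard diet for 16 weeks, others high-fat diet for 8 or for 16 weeks. Each suspension was stained with TotalSeq hashtags at 2.5 µg/ml, antibodies to surface proteins that each bear a DNA barcode, before all suspensions were pooled. From the pool 20000 cells entered the BD Rhapsody workflow, followed by TAS-Seq amplification into 1 transcriptome and 1 hashtag library. No source used here ties a tag to a diet, an animal or an age, so the sets are named by their tags, no diet is compared, and every p-value below measures the spread between tag populations of this 1 pool, which may be technical.

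Fibroblasts of fat include the progenitors of adipocytes and the cells that make the interstitial matrix. They secrete fibrillar collagens as procollagens, which are cleaved outside the cell, assembled into fibrils with small leucine-rich proteoglycans and fibronectin, and cross-linked. Along with matrix they release complement proteins, chemokines and growth factors that act on macrophages, and collagen build-up around adipocytes is a known feature of obese fat.

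The cells carried the genes of their name. Dcn, a collagen-binding proteoglycan that the choice of cells did not use, stood between 13011 and 18608 CPM in the summed fibroblast reads of the 6 tags, against means of 483 and 80.8 CPM in the macrophages of the first and the second set (cells with at least 500 CPM of C1qa and C1qb together and under 3 of the fibroblast markers). The 5 marker genes fixed the choice, so their levels are a description: Lum ran at 1347, 1249 and 1106 CPM in the first set and 1908, 1836 and 1593 CPM in the second, Pdgfra at 377, 359 and 397 and 349.6, 322 and 363 CPM, and Dpt, Clec3b and Mfap5 between 1389.5 and 3805 CPM in all 6. Of the cells kept, 315 held exactly 3 of the 5 markers, 808 held 4 and 1103 held all 5. Just outside the rule lay 184 cells with exactly 2 markers and 4 marked cells whose sum of C1qa, C1qb, Cdh5 and Upk3b was 500 to 600 CPM, against 6 kept cells at 400 to 500 CPM.

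The sets differed in depth and in tag signal before any gene was compared. Summed fibroblast reads ran from 17922009 to 23314699 per tag. Median reads per fibroblast were 42300, 42113 and 44577 in the first set and 59704, 49634 and 62479 in the second, and median genes were 3055, 3057 and 3125 against 3827, 3366 and 3927. Fibroblasts took up few tag counts, with a median of 41, 39 and 41 in the first set and 64.5, 65 and 44 in the second, where other cells of the same tags had 794 to 4695. The called tag held the most counts in 81.7%, 82.4% and 67.9% of the fibroblasts of A0301, A0302 and A0303, and in 100%, 100% and 89.97% of those of A0304, A0305 and A0307. Some first-set fibroblasts therefore carry more counts of another tag than of their own, and the part of this in the differences below was not tested beyond the 2 stricter tag rules given with them. All 11750 cell barcodes are found in the hashtag table, and none belongs to more than 1 tag population.

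Of 16746 genes tested with edgeR on reads summed per tag, 61 were higher in the second set (0.364%) and 73 were lower (0.436%) at an adjusted p under 0.05. DESeq2 called 348 higher and 343 lower of the same 16746 genes. Leaving out 1 tag at a time left 5 to 52 higher and 4 to 34 lower with edgeR. At an unadjusted p under 0.05 edgeR gave 2036 genes (12.2%). All 3 CPM values of the second set lay above the first set in 1379 genes (8.23%) and below it in 1575 (9.41%). The counts given for each list below are to be read against these numbers over all genes. The median log2 fold change of all tested genes was 0.00. Fold changes below are the second set over the first, CPM values are of the summed fibroblast reads in the order A0301, A0302, A0303 and A0304, A0305, A0307, and errors are standard errors (SE) of the log2 fold change with n = 3 tags a set. A sum does not tell apart more cells holding a gene from more RNA per cell.

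All 6 fibrillar collagens were higher in the second set, against 0.364% of all genes tested, at a median log2 fold change of 0.64. Each of the 6 had all second-set values above the first set, against 8.23% of all genes. With 1 tag left out, 1 of the 6 still passed without A0302 or without A0303, 3 without A0301, A0304 or A0307, and 6 without A0305, and the median stayed between 0.59 and 0.71. Of the 8 other interstitial collagens, 3 passed, the collagen VI chains Col6a1, Col6a2 and Col6a3, and 6 had all second-set values above the first set. Of the 13 basement membrane genes, 2 passed, the collagen IV chains Col4a1 and Col4a2, and 5 had all second-set values above. No collagen of these lists was called lower.

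Col3a1 (GRCm38 chromosome 1, 45311538 to 45349706) encodes the single chain of collagen III, a fibril of soft, extensible tissue. It ran at 6482, 6222 and 6067 CPM in the first set and 12635, 11063 and 12830.4 CPM in the second. The lowest second-set value was well above the highest first-set value, and the log2 fold change was 0.96 ± 0.06 (adjusted p = 0.00136, edgeR), the lowest p of all genes named here. The difference also passed the test with any 1 of the 6 tags left out.

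Collagen I, the main fibril of fibrous tissue, is built from Col1a1 and Col1a2. Col1a1 was at 1509, 1627 and 1557 CPM against 2500.5, 2211 and 2565 CPM (log2 fold change 0.64 ± 0.07, adjusted p = 0.0088). Col1a2 was at 2902, 3064 and 2987 CPM against 4347, 3614 and 4469 CPM (log2 fold change 0.48 ± 0.08, adjusted p = 0.0334). A0305 was the lowest of the second set for both chains and still lay above every first-set tag.

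Collagen V regulates how thick fibrils of collagen I become. Its chain Col5a3 had the largest fold change of the fibrillar collagens, with 370.4, 349 and 322 CPM against 674, 593 and 779.7 CPM (log2 fold change 0.98 ± 0.10, adjusted p = 0.0088). Col5a2 (log2 fold change 0.64 ± 0.08, adjusted p = 0.0173) and Col5a1 (0.57 ± 0.08, adjusted p = 0.0183) differed less in edgeR's test. After thinning each fibroblast to 10000 reads, a Col5a3 read was recorded in 48.8, 48.9 and 41.6% of first-set and 69.6, 68.0 and 74.5% of second-set cells. The deposited counts hold no nonzero Col5a3 value under 6, and thinning cannot restore such values. The part of depth in these shares was therefore not tested. Thinning left out 25, 32 and 31 first-set and 8, 21 and 13 second-set fibroblasts that were shallower than that.

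**Figure D1:**
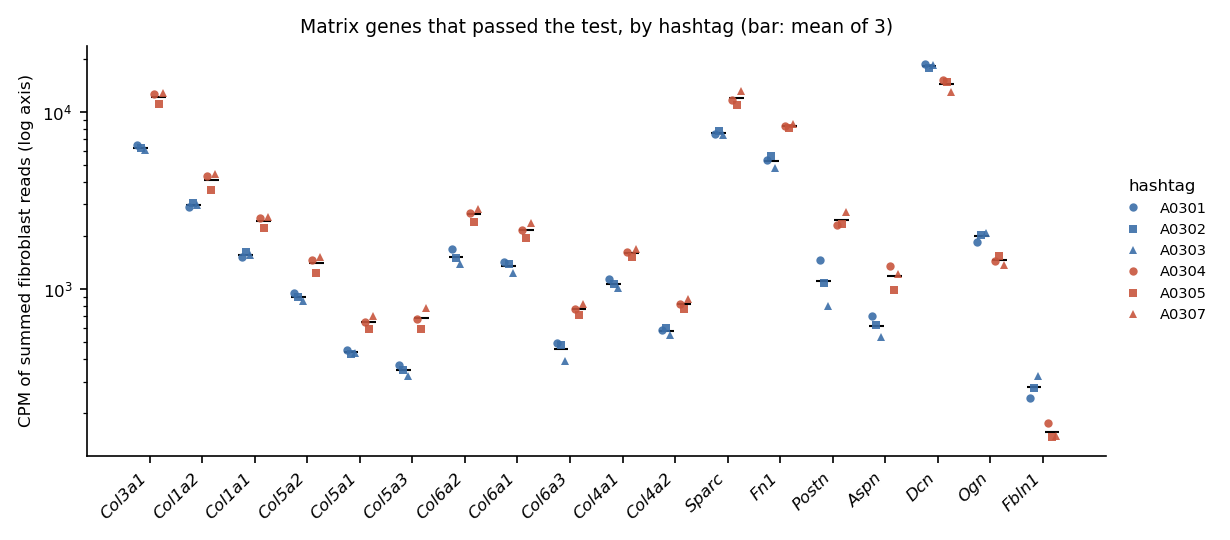
CPM of summed fibroblast reads (log axis) for 18 matrix genes that passed the test, 1 point per hashtag, with A0301, A0302 and A0303 in blue, A0304, A0305 and A0307 in red and a bar at the mean of each 3. The red points lie above the blue ones from Col3a1 to Aspn and below them for Dcn, Ogn and Fbln1, with no overlap in any of the 18.

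The promoters of collagen genes are shown because chains of 1 family differed together. The 250 bases upstream of the annotated start come from RefSeq (GRCm38.p6) for Col1a2 (chr6:4505368-4505617, plus strand) and Col3a1 (chr1:45311288-45311537, plus strand), with the CCAAT box in capitals where either strand holds the letters CCAAT. Of 32851 promoter windows of this length, 33.8% hold CCAAT, so a match is common and is a description only.
Col1a2: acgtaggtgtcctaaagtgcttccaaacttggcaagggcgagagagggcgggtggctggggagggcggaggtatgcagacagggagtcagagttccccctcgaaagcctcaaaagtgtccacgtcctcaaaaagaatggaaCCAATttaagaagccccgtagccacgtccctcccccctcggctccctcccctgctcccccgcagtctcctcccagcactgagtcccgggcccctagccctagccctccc
Col3a1: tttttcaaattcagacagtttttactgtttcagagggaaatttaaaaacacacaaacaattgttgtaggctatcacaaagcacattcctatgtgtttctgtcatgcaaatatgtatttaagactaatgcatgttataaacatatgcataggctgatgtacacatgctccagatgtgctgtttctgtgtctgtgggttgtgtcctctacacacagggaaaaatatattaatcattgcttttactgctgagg
The Col1a2 window holds 1 match and the Col3a1 window none.

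Collagen VI forms beaded filaments around cells and is a prominent matrix protein of fat. Col6a2 was at 1679.7, 1492 and 1384 CPM against 2670.1, 2404 and 2835 CPM (log2 fold change 0.80 ± 0.09, adjusted p = 0.0088), and Col6a1 (0.68 ± 0.08) and Col6a3 (0.75 ± 0.10) also passed edgeR's test, at adjusted p = 0.0115 and 0.0178. Of the 5 collagens of that list that were not called, 3 had no overlap between sets. Among them were Col14a1, which sits on fibril surfaces, at a log2 fold change of 0.46 ± 0.10 (adjusted p = 0.0855) and Col8a1, a short-chain collagen, at 0.82 ± 0.23 (adjusted p = 0.18).

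Collagen IV builds the mesh of basement membranes, which also surround adipocytes. Col4a1 was at 1134, 1063 and 1018 CPM against 1615, 1507 and 1689 CPM (log2 fold change 0.58 ± 0.07, adjusted p = 0.0106), and Col4a2, its neighbour on chromosome 8, was at 589, 605 and 549 CPM against 820.2, 774 and 875 CPM (0.51 ± 0.07, adjusted p = 0.0202). The other 11 genes of the basement membrane list, laminins, nidogens and perlecan among them, were not called, and the median of the list was 0.06. Perlecan (Hspg2, 0.40 ± 0.08, adjusted p = 0.0626) and nidogen Nid1 (0.27 ± 0.06, adjusted p = 0.0784) came nearest.

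Of 16 genes that process and cross-link collagen, 7 had an unadjusted p under 0.05, against 12.2% of all genes, and DESeq2 called 4 higher. In edgeR's test only Bmp1 passed, the protease that cleaves the C-terminal propeptide of fibrillar procollagens. It was at 317, 362 and 320.0 CPM against 451, 463 and 473 CPM (log2 fold change 0.48 ± 0.07, adjusted p = 0.0297), and it did not pass with any 1 tag left out. The collagen chaperone Serpinh1 had a log2 fold change of 0.33 ± 0.10 (adjusted p = 0.206) and the cross-linking enzyme Loxl2 one of 0.66 ± 0.12 (adjusted p = 0.0545). Both had no overlap between sets, and the median of the list was 0.21.

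Matricellular proteins bind collagen and cell surfaces and tune how matrix assembles. Of 11 genes of that list 3 were higher, against 0.364% of all genes, 7 had all second-set values above the first set, against 8.23%, and the median log2 fold change was 0.65. For some genes the deposited table lacks low values, and with their 0s filled with the most they can hide, the median was 0.31 and 3 of the 11 were negative. Sparc, a collagen-binding protein, was at 7509, 7790.3 and 7438 CPM against 11723, 10987 and 13069.8 CPM (log2 fold change 0.66 ± 0.06, adjusted p = 0.00443). Fibronectin (Fn1), the scaffold on which collagen fibrils are laid down, was at 5334, 5630.3 and 4819 CPM against 8323, 8104 and 8587 CPM (0.67 ± 0.06, adjusted p = 0.00404). Sparc and Fn1 passed with any 1 tag left out.

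Periostin (Postn), which links fibronectin to collagen and promotes cross-linking, had the largest fold change of the 3. It was at 1459, 1079 and 800.1 CPM against 2312, 2334 and 2703 CPM (log2 fold change 1.14 ± 0.18, adjusted p = 0.0323). The first-set tags differed widely among themselves, with A0301 the highest, and of the 6 fits that each leave out 1 tag, Postn passed in 1. The share of thinned fibroblasts with a Postn read was 41.7, 43.4 and 37.5% in the first set and 69.6, 72.4 and 75.2% in the second. The deposited counts hold no nonzero Postn value under 10, which thinning cannot restore. With unrecorded low values filled, the Postn log2 fold change was 1.03. Connective tissue growth factor (Ccn2) had no overlap either, at a log2 fold change of 0.65 ± 0.15 that did not pass (adjusted p = 0.106).

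Small leucine-rich proteoglycans, which coat collagen fibrils, split. Asporin (Aspn) was higher, at 703, 625 and 537 CPM against 1351, 992 and 1213 CPM (log2 fold change 0.94 ± 0.13, adjusted p = 0.0197). Decorin (Dcn), which limits fibril width, was lower, at 18608, 17711 and 18409 CPM against 15202, 14725 and 13011 CPM (-0.35 ± 0.06, adjusted p = 0.0413), a 1.27-fold difference that did not pass with any 1 tag left out. Osteoglycin (Ogn) was lower too, at 1847, 2022 and 2075 CPM against 1440.5, 1541 and 1364 CPM (-0.45 ± 0.07, adjusted p = 0.0289). The other 6 of the 9 genes were not called by edgeR, biglycan (Bgn) among them at 0.27 ± 0.08 (adjusted p = 0.183), and the list's median was -0.27. Of the 9, 8 had an unadjusted p under 0.05, against 12.2% of all genes. All second-set values lay above the first set in 3 (8.23% of all genes) and below it in 3 (9.41%).

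Of 12 elastic fibre genes, fibulin-1 (Fbln1), a protein that binds elastin and fibronectin, was lower: 241, 275 and 325 CPM against 175, 146 and 147 CPM (log2 fold change -0.85 ± 0.12, adjusted p = 0.0255). Fibrillin-1 (Fbn1), the backbone of microfibrils, was on the other side without passing, at 2809.6, 3304 and 2651 CPM against 4448, 3571 and 4409 CPM (0.51 ± 0.10, adjusted p = 0.0667). Matrix proteases and their inhibitors gave no call among 12 genes with edgeR. Of these, 7 had an unadjusted p under 0.05, against 12.2% of all genes, and DESeq2 called 3. Timp2 was at 4523, 4857 and 5069 CPM against 4628, 4450.2 and 4693 CPM, values that overlap (log2 fold change -0.07 ± 0.05, adjusted p = 0.7). Timp1, whose sets did not overlap, had a log2 fold change of 0.94 ± 0.18 (adjusted p = 0.0607).

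TGF-beta drives matrix genes in fibroblasts, and contractile genes mark its myofibroblast response. Of 13 TGF-beta genes, no ligand, receptor, Smad or latent binding protein was called with edgeR, and the list's median was 0.03. Of the 13, 4 had an unadjusted p under 0.05, against 12.2% of all genes. Tgfbi was the 1 that passed in edgeR, and DESeq2 called 2 higher and 2 lower. The ligand Tgfb1 was at 18.9, 16.9 and 11.8 CPM against 31.7, 23.98 and 23.8 CPM (log2 fold change 0.74 ± 0.21, adjusted p = 0.178), without overlap. Tgfbi, a secreted protein named for its induction by TGF-beta, was lower, at 91.0, 98.4 and 129 CPM against 49.1, 58.2 and 38.5 CPM (-1.13 ± 0.18, adjusted p = 0.0323). Of 8 myofibroblast genes 6 could be tested and none was called with edgeR. Of the 6, 4 had an unadjusted p under 0.05, against 12.2% of all genes, and DESeq2 called 2 higher. The tropomyosins were at 0.31 ± 0.09 for Tpm1 (adjusted p = 0.179) and 0.67 ± 0.13 for Tpm2 (adjusted p = 0.0682). The deposited counts hold no nonzero Tpm2 value under 6. With unrecorded low values filled, the Tpm2 log2 fold change was -0.03. The list's median was then -0.20, against 0.06 without filling, and edgeR called 1 of the 6 lower.

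**Figure D2:**
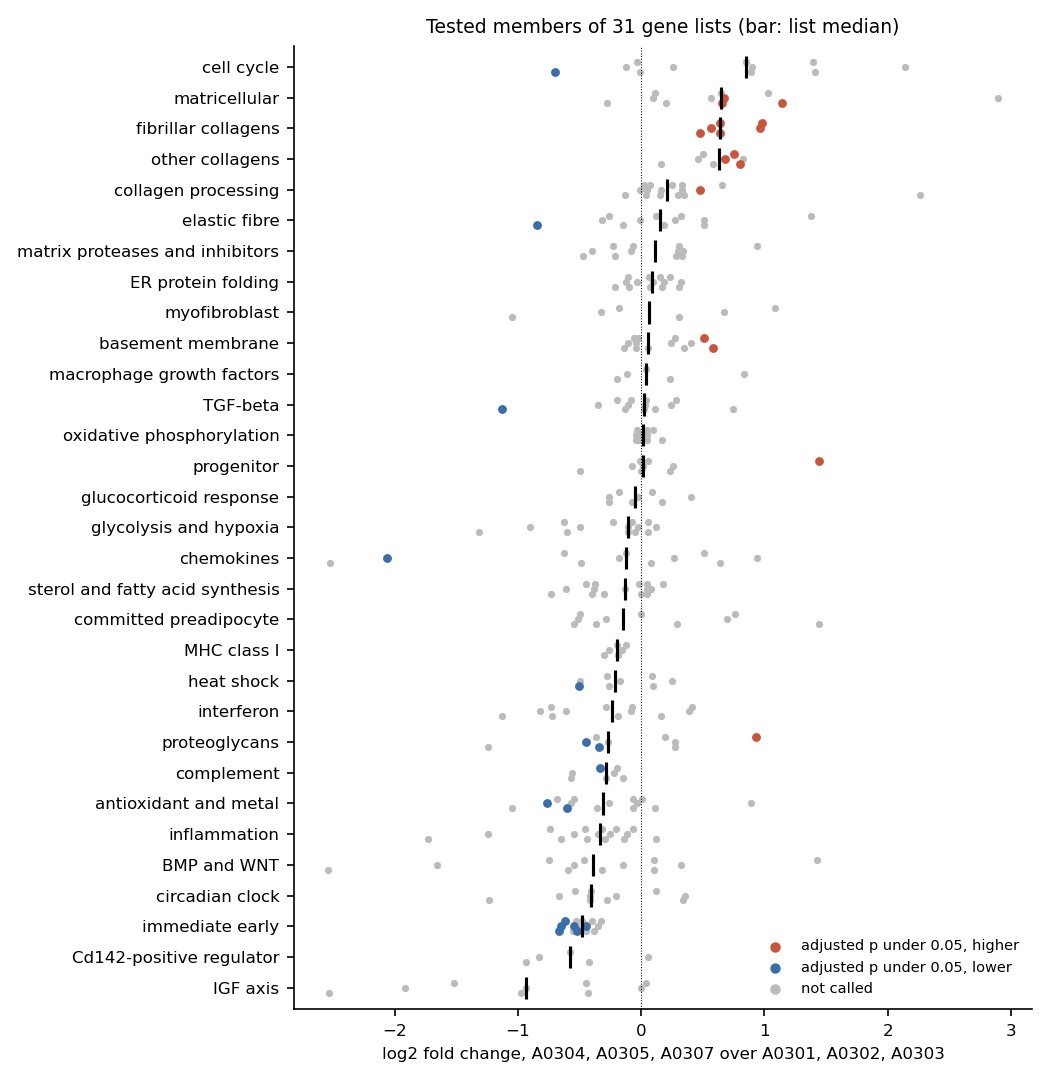
Log2 fold change of A0304, A0305 and A0307 over A0301, A0302 and A0303 (x axis) for each tested member of 31 gene lists (y axis), with called genes in red or blue, other members in grey and a bar at the list median. The called genes on the right are mostly collagens and matricellular genes, and those on the left include 6 immediate early genes, Mt1 and Mt2.

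Of the 12 genes with the largest fold changes upward among called genes at 20 CPM or more, Tyrobp, Lcp1, Laptm5 and Cd74 are known from leukocytes, and Postn was described above. Tyrobp, a signalling adaptor of myeloid cells, was at 11.9, 7.03 and 6.13 CPM against 23.7, 101 and 72.2 CPM in fibroblasts (log2 fold change 2.98 ± 0.49, adjusted p = 0.0362), and at means of 1797 and 2488 CPM in macrophages of the 2 sets. At full depth a Tyrobp read was found in 2.23, 1.64 and 0.679% of first-set and 2.52, 5.08 and 7.36% of second-set fibroblasts. Cd74, the invariant chain of MHC class II, was at 130.4, 119 and 149.7 CPM against 242, 362 and 554 CPM (1.54 ± 0.25, adjusted p = 0.0362).

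Macrophage markers, of which Cd74 is one, were summed beside these genes. The summed level of 8 macrophage markers (C1qa, C1qb, C1qc, Csf1r, Adgre1, Cd68, Lyz2, Cd74) in the fibroblast sums was 348 to 404 CPM in the first set and 489 to 1059 CPM in the second, and macrophages made up 4.56% to 6.44% of first-set and 27.4% to 31.9% of second-set cells. Of the 8 markers, 3 had all second-set values above the first set and 2 passed, Cd74 and Csf1r. In fibroblasts with a marker sum under 500 CPM, 326, 404 and 357 cells in the first set and 230, 240 and 227 in the second, the log2 fold change was -0.02 for Tyrobp, 0.00 for Cd74, -0.73 for Laptm5 and 1.14 for Lcp1, and none of the 4 passed. The choice of these cells used Cd74 itself, which fixes its value there, and macrophage markers, so the values of the other 3 are not independent of it either. With unrecorded low values filled as above, the log2 fold change was 0.03 for Tyrobp, -0.18 for Lcp1 and -0.15 for Laptm5. Cd74, with recorded values down to 1, stayed at 1.54 in that fit and passed (adjusted p = 0.0278, edgeR). In the low-marker cells all 6 fibrillar collagens still passed, with log2 fold changes from 0.53 (Col1a2) to 1.08 (Col5a3), and over all genes 49 were higher (0.305%) and 39 lower (0.242%).

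**Figure D3:**
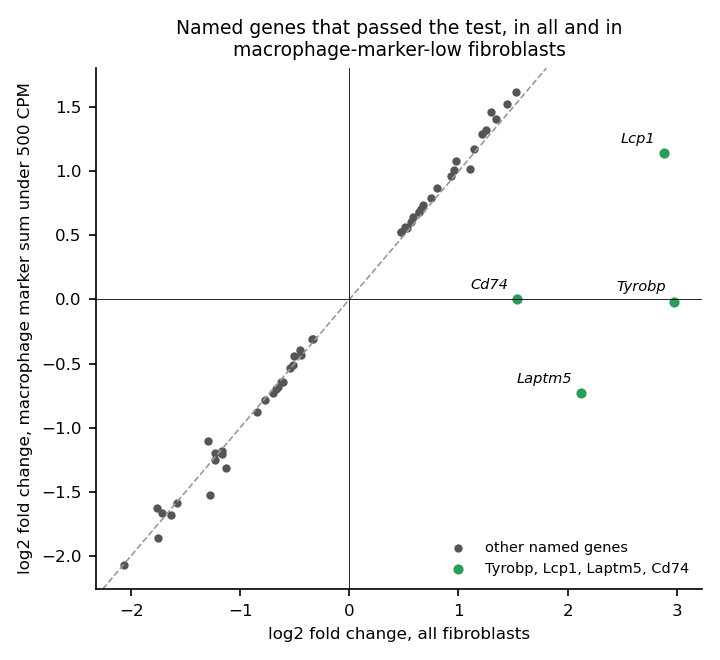
Log2 fold change of 55 named genes that passed the test in all fibroblasts (x axis) against that in fibroblasts whose 8 macrophage markers sum to under 500 CPM (y axis), 1 point per gene, with the dashed line at equal values. The 4 leukocyte genes in green drop to between -0.73 and 1.14, and the others lie close to the line.

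Markers of other cell types were low in both sets. Endothelial markers summed to 26.9 to 38.0 CPM in the first set and 29.4 to 42.3 CPM in the second. Mural markers summed to 24.7 to 86.7 CPM against 11.2 to 14.9 CPM, and adipocyte markers to 18.9 to 59.1 CPM against 11.5 to 13.6 CPM. Both lists lie higher in the first set, beside Des and the other genes lower in the second set, and their part in those was not tested. A0303 stood apart, with erythroid reads (296 CPM) that the other 5 tags lacked, and it shared epithelial and mesothelial reads of 68.7 to 88.9 CPM with A0307.

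Among the others of these 12, the peroxide-producing enzyme Duox1 was at 10.6, 15.5 and 10.6 CPM against 31.7, 36.7 and 37.2 CPM (log2 fold change 1.52 ± 0.18, adjusted p = 0.0115). Its maturation factor Duoxa1, encoded beside it on chromosome 2, was at 25.7, 26.8 and 19.0 CPM against 48.6, 57.6 and 69.5 CPM (1.30 ± 0.18, adjusted p = 0.0192). Both are low and come from few cells: Duox1 had a read in 4.49, 5.26 and 3.89% of thinned first-set and 11.1, 13.6 and 11.5% of thinned second-set fibroblasts. In the third group of tags of the pool, A0308 to A0310, Duox1 was at 6.10 to 16.0 CPM.

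Wnt2, a secreted Wnt ligand known from fat progenitors, was at 9.40, 10.8 and 13.3 CPM against 27.4, 28.4 and 35.4 CPM (log2 fold change 1.45 ± 0.18, adjusted p = 0.0154). Nrep, a small protein linked to TGF-beta responses and tissue repair, was at 124, 114 and 107 CPM against 305.2, 236 and 278 CPM (1.25 ± 0.11, adjusted p = 0.00404). It passed with any 1 tag left out, and its share of thinned cells was 17.4, 17.8 and 17.5% in the first set and 35.2, 34.0 and 33.2% in the second. The deposited counts hold no nonzero Nrep value under 6, which thinning cannot restore. With unrecorded low values filled, its log2 fold change was 0.71 and still passed (adjusted p = 0.0116, edgeR). Daglb, a lipase of endocannabinoid synthesis, had a log2 fold change of 1.34 ± 0.18 (adjusted p = 0.0192), the actin-binding protein Aif1l one of 1.22 ± 0.13 (adjusted p = 0.00965) and the heme-binding protein Hebp2 one of 1.11 ± 0.17 (adjusted p = 0.0314).

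Immediate early genes encode transcription factors and their regulators that are switched on within minutes of a stimulus, tissue digestion included. All 15 of the list had every second-set CPM value below the first set, against 9.41% of all genes. Of the 15, 6 passed the test, against 0.436% of all genes, and the median log2 fold change was -0.48. DESeq2 called all 15, and edgeR called none with all 9 tags in the fit and none without A0301, A0302 or A0303. Without A0304, A0305 or A0307 it called 3, 7 and 2. All 15 fold changes were negative in each of these fits.

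Klf4 was at 2735, 2720.3 and 2981 CPM against 2048, 1985 and 1846 CPM (log2 fold change -0.52 ± 0.06, adjusted p = 0.0115). The AP-1 members Fosb, Junb and Jun were lower. Fosb was at 2000.2, 1852 and 1845 CPM against 1237, 1306 and 1079 CPM (-0.65 ± 0.08, adjusted p = 0.0115). Junb was at 1087, 1083 and 1087 CPM against 718, 778 and 614 CPM (-0.62 ± 0.09, adjusted p = 0.0204), and Jun had a log2 fold change of -0.45 ± 0.08 (adjusted p = 0.0481). A0307 was the lowest of the second set for all 4 of these genes.

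The stress factor Atf3 (-0.67 ± 0.11, adjusted p = 0.0339) and the zinc finger factor Egr1 (-0.54 ± 0.09, adjusted p = 0.0405) completed the 6. Fos itself was at 6729, 6204 and 7040.1 CPM against 4908, 5434 and 4255 CPM and just missed (log2 fold change -0.45 ± 0.09, adjusted p = 0.0636), as did Zfp36, which destabilises inflammatory mRNAs (-0.55 ± 0.11, adjusted p = 0.0642). In macrophages of the same tags, Fosb (-0.54, adjusted p = 0.0397), Egr1 (-0.85, adjusted p = 0.0422) and Jun (-0.81, adjusted p = 0.0292) were lower in the second set as well, against 0.653% of 14708 genes lower in macrophages. Klf4 (-0.19, adjusted p = 0.335), Atf3 (-0.24, adjusted p = 0.286) and Junb (-0.59, adjusted p = 0.0835) did not pass there.

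The metallothioneins Mt1 and Mt2 bind zinc and copper and respond to metals, glucocorticoids and oxidants. Mt2 (GRCm38 chromosome 8, 94172664 to 94173568) was at 2631, 2616 and 2734 CPM against 1601, 1662 and 1411 CPM (log2 fold change -0.77 ± 0.07, adjusted p = 0.00404) and passed with any 1 tag left out. Mt1 was at 2747, 2757 and 2809 CPM against 1810.5, 1992 and 1651 CPM (-0.60 ± 0.07, adjusted p = 0.0111). The sets did not overlap for either gene. The other 12 genes of the antioxidant and metal list were not called by edgeR, among them the secreted glutathione peroxidase Gpx3 (-0.55 ± 0.12, adjusted p = 0.0849) and heme oxygenase Hmox1 (-0.57 ± 0.16, adjusted p = 0.174). Of the 14 genes, 8 had an unadjusted p under 0.05, against 12.2% of all genes. All second-set values lay below the first set in 6 (9.41% of all genes) and above it in 2 (8.23%). DESeq2 called 4 lower, against 343 of 16746 genes.

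The upstream sequences of this neighbouring pair are printed because both genes were lower together and both respond to metals. They are the 250 bases before the RefSeq start (GRCm38.p6) of Mt1 (chr8:94178839-94179088, plus strand) and Mt2 (chr8:94172368-94172617, plus strand). Capitals mark the core of the metal response element, TGCACNC or TGCGCNC on either strand, which 21.4% of 32851 promoter windows hold at least once and 5.17% at least 2 times.
Mt1: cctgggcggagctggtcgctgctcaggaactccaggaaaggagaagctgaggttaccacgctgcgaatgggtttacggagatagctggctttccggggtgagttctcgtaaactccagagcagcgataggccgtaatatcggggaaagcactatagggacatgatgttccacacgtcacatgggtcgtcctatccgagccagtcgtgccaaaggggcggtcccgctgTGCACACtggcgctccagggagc
Mt2: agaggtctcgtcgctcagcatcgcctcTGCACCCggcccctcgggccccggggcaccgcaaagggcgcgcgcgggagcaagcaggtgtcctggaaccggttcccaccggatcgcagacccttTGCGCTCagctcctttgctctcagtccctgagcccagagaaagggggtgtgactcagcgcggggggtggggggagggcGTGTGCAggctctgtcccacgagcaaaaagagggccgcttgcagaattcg
The Mt1 window holds 1 match and the Mt2 window 3, which describes the letters and not the binding of a factor. Elements outside these 250 bases are not shown.

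**Figure D4:**
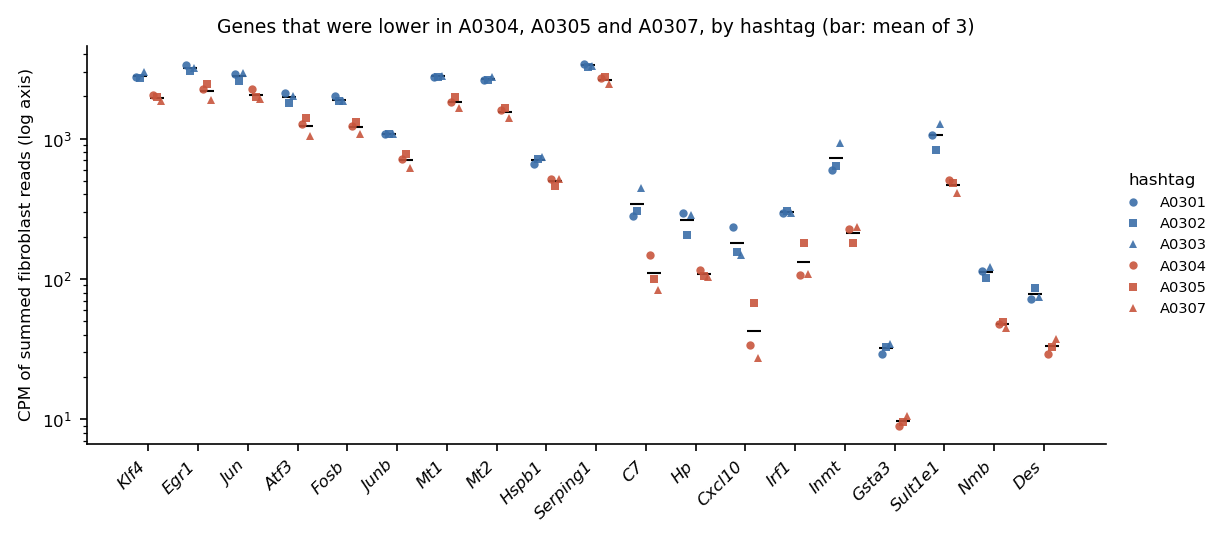
CPM of summed fibroblast reads (log axis) for 19 genes that were lower in the second set, 1 point per hashtag, with A0301, A0302 and A0303 in blue, A0304, A0305 and A0307 in red and a bar at the mean of each 3. The sets overlap in none of the 19, and the gap between the bars is narrowest for Serping1 (1.26-fold) and widest for Cxcl10 (4.19-fold).

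Of 7 tested complement genes, 1 was lower, against 0.436% of all genes, and 5 had all second-set values below the first set, against 9.41%. The median log2 fold change was -0.29, and -0.01 with 2 of 7 positive in the fibroblasts with few progenitor markers described below. The one that passed, the C1 inhibitor Serping1, was at 3421, 3244 and 3305 CPM against 2686, 2737 and 2469 CPM (log2 fold change -0.33 ± 0.06, adjusted p = 0.0392).

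The central component C3 was not called (log2 fold change -0.29 ± 0.07, adjusted p = 0.101). C7, a part of the membrane attack complex outside the list, was lower at 282, 307.4 and 443 CPM against 149, 101 and 83.7 CPM (-1.63 ± 0.23, adjusted p = 0.0225), with A0303 the highest. Haptoglobin (Hp), an acute-phase protein that binds free haemoglobin, was at 294, 207 and 286 CPM against 116, 105 and 104 CPM (-1.27 ± 0.14, adjusted p = 0.0088). With unrecorded low values filled, the log2 fold changes were -1.23 for C7 and -0.93 for Hp.

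Among 11 chemokines 1 was called. Cxcl10, an interferon-induced chemokine that draws T cells, was at 236, 155 and 148 CPM against 33.6, 67.7 and 27.5 CPM (log2 fold change -2.07 ± 0.33, adjusted p = 0.0319). With the unrecorded low values filled, its log2 fold change was -1.21. Recorded Cxcl10 reads came from a minority of cells, with a read in 13.5, 9.87 and 10.5% of thinned first-set and 5.56, 6.46 and 3.85% of thinned second-set fibroblasts. Irf1, a transcription factor of the interferon response, was lower too, at 296, 303.7 and 295 CPM against 107, 182 and 108 CPM (-1.17 ± 0.19, adjusted p = 0.0328). None of the 12 genes of the interferon list was called with edgeR, and their median was -0.24. Of the 12, 5 had an unadjusted p under 0.05, against 12.2% of all genes, and DESeq2 called 1 lower.

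The monocyte chemokine Ccl2 overlapped between sets, at 782, 1084 and 485 CPM against 569, 501 and 600.4 CPM (log2 fold change -0.49 ± 0.23, adjusted p = 0.46). The neutrophil chemokine Cxcl1 had no overlap and did not pass (-0.63 ± 0.12, adjusted p = 0.0653). Of 16 inflammation genes none was called with edgeR. Of the 16, 7 had an unadjusted p under 0.05, against 12.2% of all genes. DESeq2 called 6 lower, against 343 of 16746 genes. All second-set values lay below the first set in 6, against 9.41% of all genes. The hyaluronan-binding protein Tnfaip6 had a log2 fold change of -0.35 ± 0.14 (adjusted p = 0.339) and the hyaluronan synthase Has1 one of -0.65 ± 0.17 (adjusted p = 0.152). The growth factor Csf1, which keeps macrophages alive, was not called either, at 285, 329.7 and 311 CPM against 249, 257 and 299 CPM, values that overlap (-0.20 ± 0.09, adjusted p = 0.447).

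The genes with the largest fold changes downward include several metabolic enzymes. Inmt, which methylates small amines, was at 596, 639 and 934 CPM against 228, 181 and 233 CPM (log2 fold change -1.75 ± 0.17, adjusted p = 0.00748). The glutathione transferase Gsta3 was at 29.1, 32.6 and 34.6 CPM against 8.98, 9.60 and 10.6 CPM (-1.72 ± 0.15, adjusted p = 0.00404). Sult1e1, which inactivates oestrogen by sulfation, was at 1057, 825 and 1279.7 CPM against 508, 481 and 413 CPM (-1.17 ± 0.15, adjusted p = 0.0161). Inmt and Gsta3 passed with any 1 tag left out, and an Inmt read was found in 42.0, 39.3 and 53.3% of thinned first-set and 26.3, 24.5 and 22.4% of thinned second-set cells. With unrecorded low values filled, the Inmt log2 fold change was -1.46.

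Neuromedin B (Nmb), a peptide, was at 113, 101 and 122 CPM against 47.7, 49.8 and 44.99 CPM (log2 fold change -1.24 ± 0.11, adjusted p = 0.00404). Desmin (Des), an intermediate filament of contractile cells, was at 71.9, 86.9 and 74.8 CPM against 29.3, 32.6 and 37.6 CPM (-1.23 ± 0.13, adjusted p = 0.0088). The surface enzyme Nt5e (CD73), which makes adenosine, had a log2 fold change of -1.58 ± 0.19 (adjusted p = 0.0127), the aminopeptidase Lvrn one of -1.30 ± 0.22 (adjusted p = 0.0399) and the interferon-induced membrane protein Ifitm1 one of -1.76 ± 0.24 (adjusted p = 0.0192). The last 3 were at 5.97 to 34.6 CPM in every tag, so few reads lie behind them.

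Lineage genes of fat fibroblasts gave 1 call. Of 9 progenitor genes Wnt2 passed and 3 had an unadjusted p under 0.05, against 12.2% of all genes, and the median was 0.02. Dpp4 was at 255, 272 and 221 CPM against 257, 261 and 257 CPM, values that overlap (log2 fold change 0.05 ± 0.09, adjusted p = 0.874), and Pi16 had no overlap and just missed (-0.50 ± 0.09, adjusted p = 0.0566). None of 10 tested committed preadipocyte genes was called (5 at an unadjusted p under 0.05, 3 lower with DESeq2), with lipoprotein lipase Lpl at 0.29 ± 0.13 (adjusted p = 0.404) and the early adipogenic factor Cebpd at -0.51 ± 0.14 (adjusted p = 0.176).

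The 5 genes of the Cd142-positive cells, fat stromal cells known to restrain adipogenesis, gave no call with edgeR, at a median log2 fold change of -0.58. Of the 5, 3 had an unadjusted p under 0.05, against 12.2% of all genes. DESeq2 called 2 lower, against 343 of 16746 genes. All second-set values lay below the first set in 3, against 9.41% of all genes. Fmo2 was at 236, 300.6 and 472 CPM against 221, 202 and 142 CPM (log2 fold change -0.83 ± 0.25, adjusted p = 0.195) and Gdf10 at 158, 188 and 271 CPM against 156, 132 and 124 CPM (-0.58 ± 0.19, adjusted p = 0.231). A0303 was far above A0301 and A0302 for both, which widens their error. The growth factor Igf1 showed the same spread, at 329, 329 and 798 CPM against 282, 242 and 218 CPM (-0.97 ± 0.32, adjusted p = 0.24). None of the 9 genes of the IGF list was called with edgeR. Of the 9, 4 had an unadjusted p under 0.05, against 12.2% of all genes, and DESeq2 called 2 lower.

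Counted by cell, the progenitor share overlapped between sets. Fibroblasts with at least 2 of Dpp4, Pi16, Sema3c and Cd55 at 100 CPM made up 50.2%, 55.1% and 54.8% in the first set and 61.5%, 54.9% and 62.5% in the second (exact two-sided permutation test, p = 0.2). Those with at least 2 of F3, Fmo2, Gdf10 and Clec11a made up 24.5%, 30.9% and 32.8% against 25.5%, 23.2% and 23.4% (exact p = 0.2). Over 3 tags a set the smallest p this test allows is 0.1. Both classes are ranges of levels, not cell types, and the depth of the sets differs as given above. In thinned cells the progenitor shares no longer overlapped, at 53.6%, 57.8% and 56.5% against 61.6%, 58.5% and 64.8% (exact p = 0.1).

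Within the progenitor-marked fibroblasts alone, 203, 269 and 242 cells in the first set and 171, 173 and 187 in the second, 30 genes were higher (0.194%) and 26 lower (0.168%). The fibrillar collagens kept a median log2 fold change of 0.60 there, and 5 of 6 passed. In the remaining fibroblasts, 201, 219 and 200 cells against 107, 142 and 112, the median was 0.72 and none of the 6 passed, with 5 genes higher (0.036%) and 11 lower (0.0793%) over all genes. Col3a1 had a log2 fold change of 0.99 in the progenitor-marked and 0.92 in the other cells. The difference between both classes was not tested.

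The share of fibroblasts among cells also separated the sets. Fibroblasts were 49.1%, 50.6% and 41.7% of the cells of A0301, A0302 and A0303, and 25.3%, 25.8% and 24.4% of those of A0304, A0305 and A0307, a difference of means of -22.0 percentage points (exact p = 0.1, the smallest possible). Among cells whose called tag held at least 2/3 of at least 10 tag counts, the shares were 21.3%, 23.6% and 18.1% against 17.4%, 16.2% and 11.4%, a difference of -6.02 points (exact p = 0.1). This rule kept 310 of 1334 first-set and 451 of 892 second-set fibroblasts. The part of that unequal loss in the smaller difference was not tested. That rule also brought the difference in the share with F3, Fmo2, Gdf10 and Clec11a from -5.38 to -1.99 points (exact p = 0.3). Macrophages made up 6.44%, 4.56% and 6.42% against 27.4%, 28.7% and 31.9%. A share falls when another class grows, so the shares give no number of fibroblasts per fat pad.

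**Figure D5:**
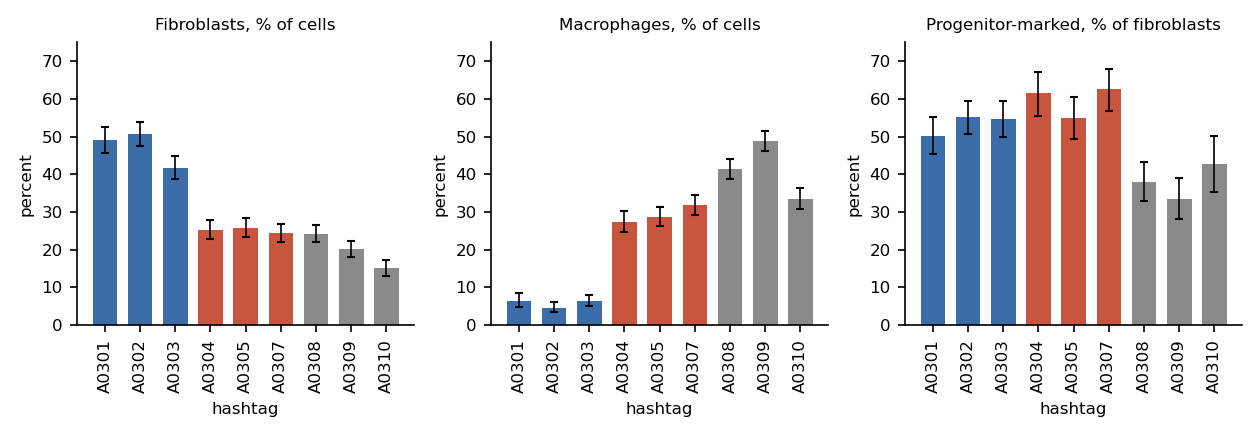
Share of fibroblasts and of macrophages among cells with at most 25% mitochondrial reads, and share of fibroblasts with at least 2 of 4 progenitor markers, in percent by hashtag (blue: first set, red: second set, grey: the 3 tags outside both sets). Bars start at 0 and error bars are 95% exact binomial intervals, which cover counting error only. The first set holds more fibroblasts and fewer macrophages than the second in every tag, and the progenitor shares overlap.

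To see which differences were unlike those in another cell type of the same tags, the change in fibroblasts was tested against that in macrophages, with tag as a block. Of 18252 genes, 21 differed (0.115%). Macrophages of the first set numbered only 53, 44 and 68 cells, against up to 391 per tag in the second.

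Fn1 differed in opposite directions. It was higher in second-set fibroblasts, as given above, and lower in second-set macrophages, at 1400.2, 1929.8 and 1491 CPM against 771, 497 and 637 CPM. Sparc did the same, with 280.2, 348 and 145 CPM against 71.9, 54.5 and 61.0 CPM in macrophages, and so did the surface glycoprotein Thy1, with a log2 fold change of 1.00 ± 0.15 in fibroblasts (adjusted p = 0.0249) and -1.41 in macrophages (adjusted p = 0.145).

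Some other genes of the 21 overlapped between sets in fibroblasts, Igfbp6 and Ctsl among them. Others had no overlap there, such as Csf1r and Tmem176a with all second-set values above the first set and Ddr2 with all below. Igfbp6, a carrier of insulin-like growth factor II, was at 1422, 1502 and 1717 CPM against 1654, 1367 and 1594 CPM in fibroblasts and at 161, 187 and 141 CPM against 8.51, 3.44 and 8.22 CPM in macrophages. Dcn stood in first-set macrophages at a mean of 483 CPM against 80.8 CPM. First-set tags held more fibroblasts per macrophage, and the part of this in the macrophage values was not tested. Low values of Fn1, Sparc and Igfbp6 are also missing, with lowest nonzero values of 16, 18 and 9 recorded in a cell.

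Of 14 genes of protein folding in the endoplasmic reticulum, none was called by edgeR or DESeq2, 1 had an unadjusted p under 0.05 and none had sets without overlap, with the chaperone Hspa5 at 3817, 3309 and 2976 CPM against 3416, 2809.9 and 3614 CPM (log2 fold change -0.03 ± 0.11). No call was made in 7 further lists with edgeR. Over all genes 12.2% had an unadjusted p under 0.05. In these lists it was reached by 4 of 14 glycolysis and hypoxia, 5 of 15 sterol and fatty acid synthesis, 2 of 6 MHC class I, 2 of 8 glucocorticoid response, 4 of 11 circadian clock, 5 of 12 BMP and WNT and 2 of 5 macrophage growth factor genes. DESeq2 called 2, 2, 0, 1, 1, 3 and 1 genes of these lists, in the same order. Of 10 oxidative phosphorylation genes, none reached that p and DESeq2 called none. Among these lists, Atp5b had a log2 fold change of -0.04 ± 0.07, Ldha -0.03 ± 0.09, H2-D1 -0.20 ± 0.07, Sgk1 -0.26 ± 0.10, Clock 0.12 ± 0.11, Sfrp4 0.10 ± 0.10 and Pros1 0.24 ± 0.08.

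Of 8 heat shock genes Hspb1 was lower, at 664, 712 and 745 CPM against 518, 457 and 516 CPM (log2 fold change -0.51 ± 0.08, adjusted p = 0.0289). Its processed copy Hsp25-ps1 passed in the same direction (-0.57 ± 0.08), and reads of the 2 may not be separable. Of 11 cell cycle genes the inhibitor Cdkn1a was lower, at 185, 250.3 and 245 CPM against 136, 130.2 and 152 CPM (-0.70 ± 0.12, adjusted p = 0.0462). The proliferation marker Mki67 was at 13.6, 8.11 and 4.83 CPM against 36.1, 14.1 and 19.4 CPM and did not pass (1.40 ± 0.43, adjusted p = 0.205). DESeq2 called 5 of the 11 higher and 1 lower, against 348 higher and 343 lower of 16746 genes. The median of the list was 0.85 with 7 of 11 positive, and with unrecorded low values filled it was -0.15 with 2 of 11 positive.

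The tag rule bears on all of these. Among fibroblasts whose top tag lay in their own set, 45 genes were higher (0.273%) and 61 lower (0.37%), and all 6 fibrillar collagens passed. Among those whose called tag held at least 2/3 of at least 10 tag counts, 93, 117 and 100 cells in the first set and 168, 171 and 112 in the second, 7 genes were higher (0.051%) and 3 lower (0.0218%). Col3a1 had a log2 fold change of 1.26 there (adjusted p = 0.0017), Col1a1 0.87 (adjusted p = 0.0266) and Sparc 0.76 (adjusted p = 0.0338), each larger than over all fibroblasts. The fibrillar collagens kept 2 of 6 calls at a median of 0.85 and the matricellular genes 1 of 3, with Fn1 at 0.52 (adjusted p = 0.0564), smaller than over all fibroblasts. The immediate early list lost its 6 calls there, and its median was -0.43. The part of the smaller number of cells in the lost calls was not tested.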

How the data were processed

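The transcriptome values the authors deposited are counts, whole numbers for each gene in each cell, with the hashtag call in the cell's name; the deposited hashtag values are counts of each tag. Per the submitters' processing notes, cutadapt 2.10, Bowtie2 2.4.2 and R 3.6.3 were used with build GRCm38. How cells, doublets and tags were called is not described in the sources used here, beyond the labels inflection, demulti and DBEC on the deposited transcriptome values. Whether counts were collapsed to molecules is not given in the sources used here, so intervals cover counting error only. Of 12040 cells, 290 were not used (278 doublet calls and 12 without a tag). Of 18135 genes seen in at least 100 cells, 389 (2.15%) have no low values. Gene positions are from GENCODE M21, which held 96.4% of the symbols.

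Reads were summed over the fibroblasts of each tag and tested with edgeR 4.0.16 (quasi-likelihood, TMM, filterByExpr, Benjamini-Hochberg, adjusted p under 0.05) in R 4.3.3, with limma 3.58.1 and DESeq2 1.42.0 as alternatives. Tested on simulated data for the same comparison and 16746 genes, the step recovered 14%, 50%, 76% and 86% of genes changed 1.5-, 2-, 3- and 4-fold. Shares were compared by an exact permutation test. Named genes were the 12 largest called changes in each direction at 20 CPM or more, up to 6 called members of each of 31 lists or else its 2 highest, and the 5 markers; other names were chosen after their values were seen. A few genes are not reported here, and 1 of them was left out of its list. The fibroblasts and the lists were chosen with earlier results of these data known. Tables and figures used Python 3.11.15, numpy 2.4.6, scipy 1.17.1, pandas 2.3.3 and matplotlib 3.10.9.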

Additional observations from a re-analysis of the deposited data

Results flagged for a closer look

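For 3 genes the difference between the tag sets was not the same in fibroblasts and in macrophages of the same tags, by a test of that difference over 18252 genes with tag as a block (edgeR). The log2 fold change in fibroblasts minus that in macrophages was 1.89 for Fn1, which was higher in second-set fibroblasts and lower in second-set macrophages. It was 2.49 for Sparc, with the same directions. It was 4.55 for Igfbp6, which overlapped between sets in fibroblasts and was lower in second-set macrophages. The first-set macrophages numbered 53, 44 and 68 cells. The lowest nonzero values recorded in a cell were 16 for Fn1, 18 for Sparc and 9 for Igfbp6, so lower ones are missing from these sums. Dcn, a fibroblast gene, was also lower in second-set macrophages, at a mean of 80.8 CPM against 483 CPM. With unrecorded low values filled, the test over all genes called 95 genes in place of 21, and its values for these 3 are not given here. The part of fibroblast RNA in the macrophage values was not tested.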

How the results depend on the processing

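Over the 6 tags, edgeR called 61 genes higher and 73 lower. DESeq2 called 348 and 343, thinning every cell to 10000 reads 95 and 112, all 9 tags in the fit 29 and 19, the 2/3 tag rule 7 and 3, progenitor-marked cells alone 30 and 26, and the other fibroblasts 5 and 11. Of these, the 2/3 rule and the split also keep fewer cells. The cause of each of these shifts was not tested. The low-macrophage cells, an alternative chosen after seeing the data, gave 39 lower genes. The 134 called genes kept their direction wherever they were tested, except 6 with unrecorded low values filled, 2 in the fibroblasts with few progenitor markers and 3 in the low-macrophage cells.

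With 1 tag left out the counts ranged from 5 to 52 higher and from 4 to 34 lower. They were 12 and 11 without A0301, 7 and 6 without A0302, 5 and 4 without A0303, 52 and 27 without A0304, 33 and 34 without A0305, and 8 and 10 without A0307. Each such fit has fewer samples. Col3a1, Fn1, Sparc, Mt2, Nrep, Inmt, Gsta3 and Nmb passed in all 6 of these fits. Over the 55 named genes called and 20 alternatives, 703 of 1100 values kept the call, 393 lost it in the same direction and 4 reversed. The reversed log2 fold changes were -0.016 for Tyrobp and -0.73 for Laptm5 in low-macrophage cells, and -0.18 for Lcp1 and -0.15 for Laptm5 with low values filled.

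The fibroblast share difference ranged from -24.7 to -20.3 percentage points with 1 tag left out, the progenitor-marked share difference from 4.72 to 8.65 and the share with F3, Fmo2, Gdf10 and Clec11a from -7.83 to -3.68. Under the 2/3 tag rule the 3 differences were -6.02, 4.20 and -1.99, against -22.0, 6.28 and -5.38. Genes unlike in fibroblasts and macrophages numbered 21, 95 with low values filled, and 1 to 49 with 1 tag left out; without A0302, A0305 or A0307 it was 1, and the cause was not tested. No paired analysis was possible because the tags carry no replicate numbers that link the sets. Median depth differs between sets, tag counts of fibroblasts are few, and simulated 1.5-fold changes were mostly missed, so a gene without a call may still differ.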

Other observations

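Called genes outside the lists were read after their values were seen, so the choice among them is a description. Several that were higher in the second set act in or on the matrix. Follistatin-like 1 (Fstl1), a secreted glycoprotein, was at 3575, 3836 and 3380.4 CPM against 5844, 5042 and 6089 CPM (log2 fold change 0.66 ± 0.08, adjusted p = 0.0111, edgeR). Peroxidasin (Pxdn), which cross-links collagen IV, had a log2 fold change of 0.65 ± 0.10 (adjusted p = 0.0297), the metalloprotease Adamts12 one of 0.67 ± 0.09 (adjusted p = 0.0202) and the secretory-pathway prolyl isomerase Ppic one of 0.66 ± 0.10 (adjusted p = 0.0292). The sphingomyelinase Smpd3 (0.94 ± 0.14), the membrane-cytoskeleton protein Marcks (0.63 ± 0.08) and the actin-bundling protein Fscn1 (0.64 ± 0.12) were also higher.

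Among genes lower in the second set were further rapid-response factors and enzymes. Myc (-0.60 ± 0.09), Maff (-0.68 ± 0.10) and Fosl2 (-0.64 ± 0.11) encode transcription factors, and Errfi1 (-0.75 ± 0.10) an inhibitor of the EGF receptor. Ornithine decarboxylase (Odc1), the first enzyme of polyamine synthesis, was at 463, 484 and 498 CPM against 284, 289 and 228 CPM (-0.85 ± 0.10, adjusted p = 0.0111). The purine phosphorylase Pnp (-0.85 ± 0.10), glutamine synthetase Glul (-0.54 ± 0.08), follistatin Fst (-0.97 ± 0.14), which binds activins, and the opioid precursor Penk (-0.61 ± 0.11) were lower too.

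The third group of tags, A0308, A0309 and A0310, entered only the alternative fit with all 9 tags and is given as values. Its fibroblasts ran from 10548 to 11820.4 CPM for Col3a1, 2568 to 3041 CPM for Col1a1 and 10296 to 11276 CPM for Sparc. Fn1 ran there from 4308 to 5268 CPM, Aspn from 511 to 578 CPM, Wnt2 from 8.11 to 13.3 CPM and Gas7 from 228 to 251 CPM. Mt2 ran from 1798 to 2685 CPM, and 37.9%, 33.4% and 42.6% of these fibroblasts were progenitor-marked.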
